A study of Mus musculus with 4 samples.

Results

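The genes described here are 10 endothelial and angiogenic genes of mouse skeletal muscle, chosen by name: Pecam1, Kdr, Flt1, Tek, Tie1, Vwf, Eng, Cldn5, Vegfa and Vegfb. All 10 were found, each as 1 locus, among 20340 gene labels with a value in all 4 samples, and all 10 passed the filter of at least 1 FPKM in at least 2 samples. mRNA was sequenced from the tibialis anterior (TA), a shin muscle, of C57BL/6 mice that were 3 months old (Young) or 20 months old (Old). There were 2 samples per age, the labels give no treatment and no genetic change in either group, and pairs of values below are in the order of sample 1 and sample 2 of an age. Whole muscle holds fibers, vessels, connective tissue and blood, so that fewer endothelial cells cannot be told apart from less RNA per cell.

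Blood vessels are lined by endothelial cells, and in muscle most of these form capillaries that run along the fibers. Vegfa is the main growth signal for such cells and acts through the receptor encoded by Kdr, while the receptor encoded by Flt1 binds Vegfa tightly with weak signaling and also binds Vegfb. Tek (Tie2) is the receptor for angiopoietins, and Tie1 is its partner receptor. Eng is a co-receptor for ligands of the BMP and TGF-beta families, Cldn5 a tight junction protein, Pecam1 an adhesion protein at endothelial contacts and Vwf a clotting protein that endothelial cells store and release.

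The promoters of the receptor pairs, of Eng and of Cldn5 are shown because Flt1, Tie1 and Eng had lower values in old muscles once the samples were brought to one level, Kdr and Tek had differences near 0 and Cldn5 had higher values. Each window runs from 250 bases before to 50 bases after the gene start (RefSeq, GRCm38.p6, printed 5′ to 3′ on the strand of the gene). Capitals mark the letters GGAAGT on either strand (ACTTCC), which hold the GGAA core bound by ETS factors, a family of transcription factors used by endothelial genes. The windows are chr5:147725962-147726261 for Flt1, chr5:75978406-75978705 for Kdr and chr4:118489800-118490099 for Tie1, on the minus strand, and chr4:94739039-94739338 for Tek, chr2:32646345-32646644 for Eng and chr16:18776597-18776896 for Cldn5, on the plus strand. The Flt1 locus with FPKM values runs to 147726549, so the RefSeq window of Flt1 lies inside that locus.
Flt1: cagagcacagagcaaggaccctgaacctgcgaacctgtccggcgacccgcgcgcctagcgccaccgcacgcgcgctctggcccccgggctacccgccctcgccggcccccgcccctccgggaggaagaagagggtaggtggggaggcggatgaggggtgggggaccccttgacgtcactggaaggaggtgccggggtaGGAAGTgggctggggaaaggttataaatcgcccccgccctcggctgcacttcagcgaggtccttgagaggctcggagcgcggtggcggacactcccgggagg
Kdr: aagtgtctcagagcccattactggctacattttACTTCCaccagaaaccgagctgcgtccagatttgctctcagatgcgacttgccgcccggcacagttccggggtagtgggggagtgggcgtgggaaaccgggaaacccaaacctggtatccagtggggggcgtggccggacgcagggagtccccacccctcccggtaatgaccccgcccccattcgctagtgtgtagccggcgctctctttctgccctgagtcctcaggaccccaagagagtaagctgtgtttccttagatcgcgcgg
Tie1: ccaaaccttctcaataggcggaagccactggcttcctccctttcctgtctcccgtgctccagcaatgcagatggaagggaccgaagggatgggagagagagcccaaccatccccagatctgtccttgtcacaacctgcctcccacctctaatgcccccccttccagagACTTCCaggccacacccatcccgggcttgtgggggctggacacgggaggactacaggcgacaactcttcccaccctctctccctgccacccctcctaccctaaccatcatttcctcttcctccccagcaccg
Tek: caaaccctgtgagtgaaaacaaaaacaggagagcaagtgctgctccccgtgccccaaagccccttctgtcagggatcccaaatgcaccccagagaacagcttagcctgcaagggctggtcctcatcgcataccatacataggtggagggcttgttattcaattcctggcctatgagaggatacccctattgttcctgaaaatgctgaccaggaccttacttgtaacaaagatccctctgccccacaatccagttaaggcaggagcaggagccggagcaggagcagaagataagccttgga
Eng: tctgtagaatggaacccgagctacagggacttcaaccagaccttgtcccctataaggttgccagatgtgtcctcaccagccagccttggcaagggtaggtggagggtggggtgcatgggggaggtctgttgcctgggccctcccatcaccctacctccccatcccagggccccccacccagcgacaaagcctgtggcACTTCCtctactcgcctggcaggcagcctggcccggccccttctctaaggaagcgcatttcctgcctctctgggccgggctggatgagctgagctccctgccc
Cldn5: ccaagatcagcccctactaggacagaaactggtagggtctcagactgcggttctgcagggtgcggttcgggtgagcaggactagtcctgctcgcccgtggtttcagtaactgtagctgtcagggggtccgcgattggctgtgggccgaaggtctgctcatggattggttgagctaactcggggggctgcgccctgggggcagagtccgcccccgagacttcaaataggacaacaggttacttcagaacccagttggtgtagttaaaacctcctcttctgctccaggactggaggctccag
GGAAGT was found once each in the windows of Flt1, Kdr, Tie1 and Eng and not in those of Tek and Cldn5. It was present in 23.8% of all 32851 RefSeq promoter windows. The shorter core GGAA, which every GGAAGT contains, was present in 96.0% of all windows, with 9 matches in Tie1, 5 in Kdr, 4 each in Flt1 and Eng, 2 in Tek and 0 in Cldn5. Of the 10 genes, 8 had a window, and Vegfa had 2. Among the windows not printed, GGAAGT was found once in 1 Vegfa window (chr17:46025114-46025413) and not in that of Vegfb. Among 3 other motifs searched on both strands, AACAAAG (5.85% of all windows) was found in Tek, ACGTG (19.6%) in Vegfa and TATAAA (13.6%) in Flt1. A match describes letters only, and GGAAGT did not divide the genes by their difference between ages, since both Kdr and Flt1 held it.

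The values were FPKM, mapped fragments relative to transcript length and to the size of the library. The libraries differed in scale within each age. All 10 genes were higher in Old 1 than in Old 2, by 1.92-fold to 2.22-fold, and higher in Young 2 than in Young 1, by 1.89-fold to 2.48-fold. Most genes showed such a shift, and its size changed with level: between the old samples the log2 ratio had a median of 0.99 for genes of 10 to 30 FPKM and of 1.11 for genes of 3 to 10 FPKM. Around the shift, samples of one age were nearly alike at 10 to 30 FPKM, with a robust SD of 0.066 (Old) and 0.069 (Young) on the log2 scale, against 0.39 for the difference between ages. The spread was wider at 3 to 10 FPKM, the range of the means of Kdr, Tek, Vwf and Cldn5. There the robust SD was 0.177 in each age, against 0.44 for the difference between ages. The labels do not say that samples of an age came from separate mice, and p-values measure only the spread between these samples, which may be technical. Values are therefore given as deposited and after cyclic loess, a normalization that brings samples to one level with a correction that changes along the expression range. The number of fragments behind each value is unknown.

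Endothelial RNA was measured in every sample. Of 9 endothelial markers, 8 had a value, and all of these were above 0 in all 4 samples, from 1.18 to 58.5 FPKM. The 10 genes spanned 3.14 FPKM for Vwf in Old 2 to 147 FPKM for Vegfb in Young 2.

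**Figure D1:**
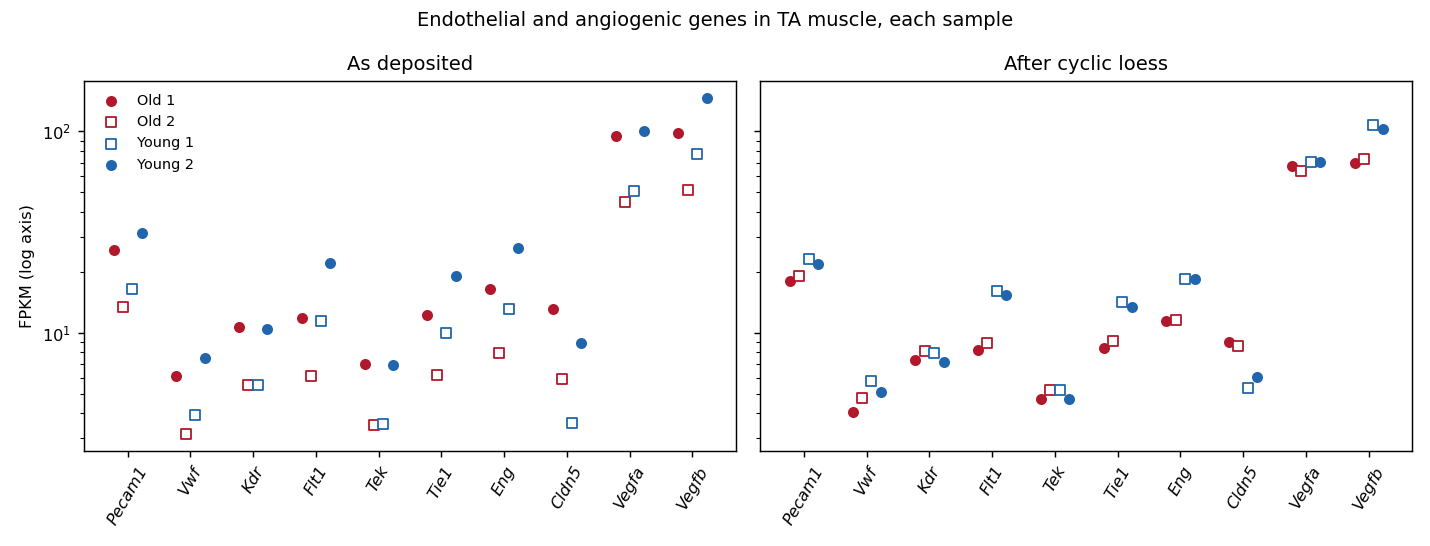
FPKM of the 10 genes in each sample on a log axis, as deposited (left) and after cyclic loess (right). Red is Old, blue is Young, filled circles are Old 1 and Young 2 and open squares are Old 2 and Young 1. As deposited, filled circles lie above open squares of the same age for every gene, and after cyclic loess Flt1, Tie1, Eng and Vegfb are lower and Cldn5 is higher in both old samples.

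As deposited, the ages overlapped for all 10 genes, while 1.61% of tested genes were higher and 1.93% lower in old muscles without overlap. In the limma test, 0 of 10 passed (adjusted p = 1.00 for each, standard errors of 0.93 to 0.98 on the log2 scale), against 0.175% of all 10266 tested genes that were called higher and 0.127% called lower. At an unadjusted p under 0.05, 0 of 10 and 0.75% of all tested genes passed.
After cyclic loess, 5 genes (Flt1, Eng, Tie1, Vegfb and Pecam1) were lower and 1 (Cldn5) was higher at an adjusted p under 0.05, where 13.6% of tested genes were called lower and 11.1% higher. The ages did not overlap for 7 lower genes and 1 higher gene, and for 31.0% of tested genes in each direction. With median scaling, a single factor for each sample, 0 of 10 passed (lowest adjusted p = 0.132 from limma, 4 at an unadjusted p under 0.05), against 0.234% of tested genes higher and 0.214% lower. With quantile normalization 0 of 10 passed (lowest adjusted p = 0.0719 from limma, 5 at an unadjusted p under 0.05), against 0.867% higher and 1.32% lower. After cyclic loess without Old 2 or without Young 1, 0 of 10 were called, against 0 and 112 of all tested genes. Without Old 1, Flt1, Tie1, Eng and Vegfb were called, with 1217 of 7842 tested genes. Without Young 2 all 6 were called, with 2316 of 7828. The median difference of the 10 genes was -0.27 as deposited and -0.26 after cyclic loess, against -0.014 and 0.0017 over all tested genes.

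**Figure D2:**
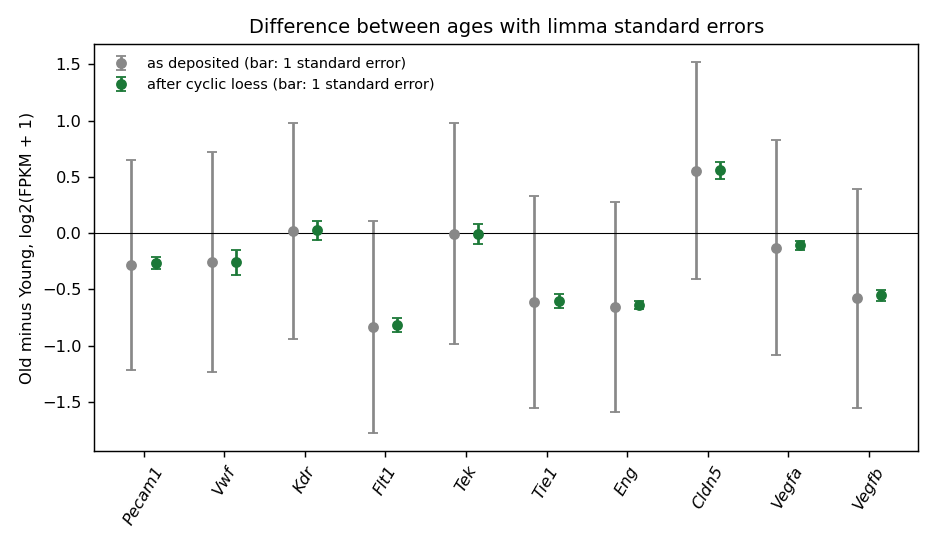
Old minus Young in log2(FPKM + 1) for the 10 genes as deposited (gray) and after cyclic loess (green). Bars are 1 limma standard error on each side. The estimates nearly coincide, with Flt1 at -0.83 and -0.82, while standard errors are 0.93 to 0.98 as deposited and at most 0.11 after cyclic loess.

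Of the VEGF receptors, Flt1 was lower in old muscles after cyclic loess and Kdr was not called. Flt1 (chromosome 5 from 147562196 to 147726549, mm10) had 11.9 and 6.11 FPKM in old muscles and 11.5 and 22.2 FPKM in young muscles. As deposited, the higher old value fell between the young values. After cyclic loess it had 8.18 and 8.95 FPKM in old muscles and 16.2 and 15.5 FPKM in young muscles, without overlap. The log2 difference was -0.83 as deposited (standard error 0.94, adjusted p = 1.00 from limma) and -0.82 (standard error 0.061, adjusted p = 0.0107 from limma) after cyclic loess. Kdr (chromosome 5 from 75933270 to 75978428) had 10.8 and 5.52 FPKM at 20 months and 5.50 and 10.4 FPKM at 3 months. After cyclic loess these were 7.36 and 8.10 FPKM at 20 months and 7.99 and 7.14 FPKM at 3 months, with the ages overlapping. The difference for Kdr was 0.028 (standard error 0.085, adjusted p = 0.884 from limma), which does not show that the ages were equal.

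A ratio of 2 genes in the same sample is free of a scale factor shared by all genes of that sample. A ratio of genes at unlike levels still holds the part of the shift that changes with level. Such ratios were formed after the values were seen, for 8 pairs. Flt1 to Kdr was 1.10 and 1.10 in old muscles and 2.08 and 2.13 in young muscles. The ratio was 1.91-fold higher in young muscles, and the samples of an age lay within 0.032 of each other on the log2 scale. A two-sided exact permutation test gave p = 0.333, which is the lowest value possible with 2 samples against 2, and an adjusted p of 0.381 over the 8 pairs (Benjamini-Hochberg). Of the other tested genes that were above 0 in every sample (9292), 32.3% had a ratio to Kdr that was lower in old muscles without overlap, and 9.57% one that was also at least 1.5-fold lower.

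The Tie receptors differed from each other in the same manner. Tie1 (chromosome 4 from 118471191 to 118489849) had 12.2 and 6.21 FPKM in old muscles and 10.01 and 19.2 FPKM in young muscles. After cyclic loess these were 8.43 and 9.09 FPKM in old muscles and 14.2 and 13.4 FPKM in young muscles, and the log2 difference was -0.60 (standard error 0.060, adjusted p = 0.0151 from limma). For its partner, Tek (chromosome 4 from 94739300 to 94874939), the values were 6.99 and 3.48 FPKM at 20 months and 3.52 and 6.95 FPKM at 3 months, so that the ages covered nearly the same range. Its log2 difference after cyclic loess was -0.0048 (standard error 0.090, adjusted p = 0.988 from limma). Tie1 to Tek was 1.75 and 1.78 in old muscles and 2.85 and 2.76 in young muscles, 1.59-fold higher in young muscles (exact permutation p = 0.333). Of these other tested genes, 32.0% had a ratio to Tek that was lower in old muscles without overlap, and 8.82% one that was also at least 1.5-fold lower.

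**Figure D3:**
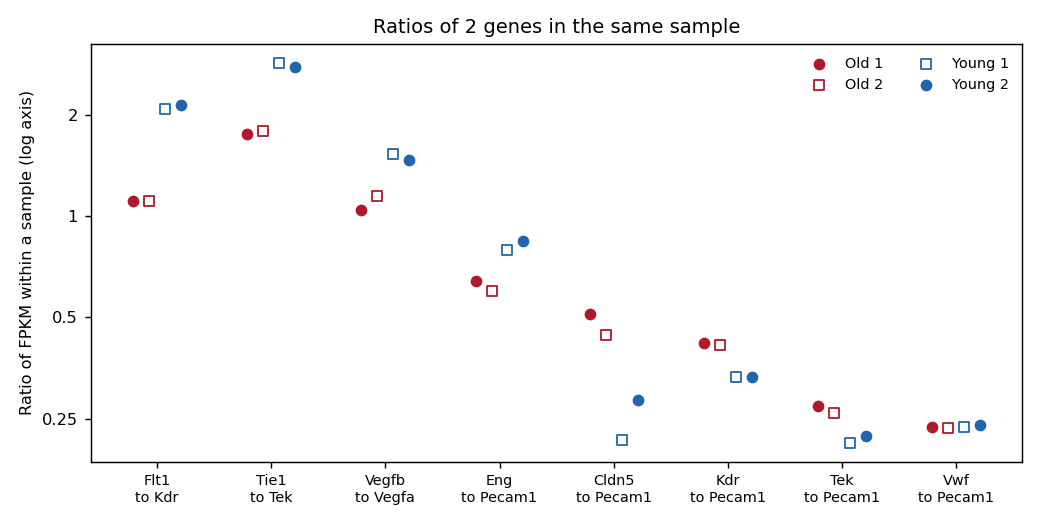
Ratio of the FPKM of 2 genes in the same sample (log axis), for 8 pairs. Red is Old, blue is Young, filled circles are Old 1 and Young 2 and open squares are Old 2 and Young 1. Flt1 to Kdr lies at 1.10 and 1.10 in the old samples and at 2.08 and 2.13 in the young samples, whereas Vwf to Pecam1 overlaps between the ages.

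Among the ligands, Vegfb was lower in old muscles after cyclic loess and Vegfa was not called. Vegfb (chromosome 19 from 6982472 to 6987651) had 98.7 and 50.98 FPKM in old muscles and 77.3 and 147 FPKM in young muscles. After cyclic loess it had 69.8 and 73.3 FPKM in old muscles and 108 and 103 FPKM in young muscles, a log2 difference of -0.55 (standard error 0.047, adjusted p = 0.0125 from limma). Vegfa (chromosome 17 from 46016993 to 46032377) had 94.7 and 44.6 FPKM at 20 months and 50.5 and 100.2 FPKM at 3 months. Its values after cyclic loess were 67.04 and 63.8 FPKM at 20 months and 70.7 and 70.4 FPKM at 3 months, which did not overlap, and the log2 difference was -0.11 (standard error 0.037, adjusted p = 0.133 from limma). Within a sample, Vegfb to Vegfa was 1.04 and 1.14 in old muscles and 1.53 and 1.46 in young muscles, lower in old muscles without overlap, as was the ratio of 23.5% of the other tested genes to Vegfa. The ligands had the highest levels per transcript length of the 10 genes, with mean FPKM in old and young muscles of 69.7 and 75.4 for Vegfa and 74.8 and 112 for Vegfb. Muscle fibers are known to make both ligands too.

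Eng (chromosome 2 from 32646595 to 32694175) had 16.4 and 7.99 FPKM in old muscles and 13.1 and 26.5 FPKM in young muscles. After cyclic loess it had 11.5 and 11.6 FPKM in old muscles and 18.5 and 18.5 FPKM in young muscles, with the samples of an age closer together than those of any other of the 10 genes and a log2 difference of -0.64 (standard error 0.033, adjusted p = 0.00798 from limma). Its locus also covers the neighbor Fpgs, which had 6.80 and 0.599 FPKM at 20 months and 0.267 and 8.99 FPKM at 3 months. How fragments were divided between these genes is not given in the sources used here.

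Pecam1 and Vwf had nearly equal estimates. Pecam1 (chromosome 11 from 106654218 to 106715281) had 25.7 and 13.4 FPKM in old muscles and 16.6 and 31.4 FPKM in young muscles, and its log2 difference after cyclic loess was -0.26 (standard error 0.052, adjusted p = 0.0464 from limma), close to the threshold. Vwf (chromosome 6 from 125552948 to 125686679) had 6.08 and 3.14 FPKM at 20 months and 3.92 and 7.51 FPKM at 3 months, and its log2 difference was -0.26 (standard error 0.11, adjusted p = 0.190 from limma). Vwf to Pecam1 was 0.237 and 0.235 in old muscles and 0.236 and 0.240 in young muscles, with the ages overlapping, and 13.0% of the other tested genes had a ratio to Pecam1 that was lower in old muscles without overlap. Eng to Pecam1 was among those, at 0.640 and 0.598 in old muscles and 0.792 and 0.845 in young muscles. Kdr to Pecam1 was higher in old muscles, at 0.418 and 0.413 in old muscles and 0.332 and 0.332 in young muscles, and Tek to Pecam1 likewise, at 0.272 and 0.260 in old muscles and 0.212 and 0.222 in young muscles. Of these other tested genes, 50.3% were higher relative to Pecam1 without overlap, so the ratios of Kdr and Tek are not set apart by that.

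Cldn5 was the 1 gene of the 10 called higher in old muscles. Cldn5 (chromosome 16 from 18776847 to 18778262) had 13.1 and 5.92 FPKM in old muscles and 3.59 and 8.89 FPKM in young muscles. After cyclic loess it had 9.06 and 8.65 FPKM in old muscles and 5.34 and 6.06 FPKM in young muscles, without overlap. The log2 difference was 0.56 (standard error 0.078, adjusted p = 0.0246 from limma), opposite in sign to the 5 genes called lower. Cldn5 to Pecam1 was 0.511 and 0.443 in old muscles and 0.216 and 0.283 in young muscles, 1.92-fold higher in old muscles. For this ratio, the samples of an age lay 0.21 (Old) and 0.39 (Young) apart on the log2 scale. Of the other tested genes, 20.3% were at least 1.5-fold higher relative to Pecam1 without overlap. The ratio of mean FPKM as deposited, Old to Young, was 1.53 for Cldn5, 1.02 for Kdr, 1.00 for Tek, 0.924 for Vegfa, 0.815 for Pecam1, 0.807 for Vwf, 0.668 for Vegfb, 0.631 for Tie1, 0.616 for Eng and 0.534 for Flt1. After cyclic loess, neighbors in that order differed by less than the sum of their standard errors from Kdr to Vegfa, between Pecam1 and Vwf, and from Vegfb to Eng.

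Other genes of the same pathways were read from lists written by hand. The calls in the rest of the text are those after cyclic loess, and 0 genes of the vessel-related lists passed as deposited (limma). Of 26 further endothelial identity genes, 19 had a value and 17 were tested. Of these, 9 were lower and 0 higher, with a median log2 difference of -0.38. Over all tested genes, 13.6% were called lower and 11.1% higher, the background for each list that follows. The lower genes included Sox18 (-1.17, adjusted p = 0.00712 from limma) and Sox17 (-0.82, adjusted p = 0.0118), transcription factors that act in vessel development. Sox18 had 9.31 and 3.96 FPKM in old muscles and 10.5 and 21.9 FPKM in young muscles as deposited. Sox7, the remaining member of this SoxF group, was named after its value was seen and was also lower (-0.68, adjusted p = 0.0203 from limma). Cyyr1 was lower as well (-0.78, adjusted p = 0.0429 from limma), and so was the endothelial marker Egfl7 (-0.23, adjusted p = 0.0190). Estimates near 0 on the higher side were those of Ecscr (0.11, adjusted p = 0.467 from limma), Clec14a (0.042, adjusted p = 0.895) and the ETS factor gene Erg (0.017, adjusted p = 0.924). On the lower side were Gja5 (-0.0071, adjusted p = 0.989 from limma), Emcn (-0.089, adjusted p = 0.254) and Icam2 (-0.098, adjusted p = 0.646), of which Gja5 was named after its value was seen. Identity genes thus had unequal differences, as the 10 genes did.

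The genes of capillaries for lipid and water handling had the lowest median of the vessel-related lists, -0.59 over 12 tested genes, of which 8 were lower and 1 higher. The surface proteins Ly6a (-1.16, adjusted p = 0.00526 from limma) and Ly6c1 (-1.11, adjusted p = 0.00532) and the water channel Aqp1 (-0.87, adjusted p = 0.00640) were lower. Aqp1 had 186 and 90.6 FPKM at 20 months and 174 and 356 FPKM at 3 months as deposited. The transcription factor gene Meox2 was higher (0.45, adjusted p = 0.0254 from limma), and Tcf15 was not called (0.075, adjusted p = 0.759). In the Notch list, 5 of 11 tested genes were lower and 1 was higher, with a median of -0.087. The receptors Notch4 (-0.98, adjusted p = 0.0204 from limma) and Notch1 (-0.65, adjusted p = 0.0342) and the ligand Jag2 (-0.60, adjusted p = 0.0153) were lower. The Notch target Hes1 (1.05, adjusted p = 0.00674 from limma) was higher. Other targets, named after their values were seen, were not uniform. Hey1 (-0.45, adjusted p = 0.0402 from limma) was lower, while Nrarp (0.34, adjusted p = 0.0594) and Heyl (-0.083, adjusted p = 0.747) were not called. The ligands Dll4 (0.38, adjusted p = 0.0607) and Dll1 (0.42, adjusted p = 0.203) were not called. Hes1 had 19.9 and 9.43 FPKM at 20 months and 4.07 and 9.08 FPKM at 3 months as deposited.
In the angiopoietin and Tie list, 2 of 6 tested genes were lower and 1 was higher. Estimates were above 0 for 4 genes and below 0 for 2, with a median of 0.19. Angpt1, which encodes the activating ligand of Tek, was higher (0.70, adjusted p = 0.0318 from limma), with 7.36 and 3.63 FPKM at 20 months and 1.995 and 3.92 FPKM at 3 months as deposited. Ptprb, which encodes a phosphatase that acts on Tek, was lower (-0.51, adjusted p = 0.0320 from limma).

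Of the genes around endoglin and BMP signaling, 3 of 12 tested were lower and 0 higher, with a median of -0.26, beside 13.6% and 11.1% of all tested genes. The target genes Id3 (-0.65, adjusted p = 0.0113 from limma) and Id1 (-0.61, adjusted p = 0.0212) were lower, and Bmp4 (0.38, adjusted p = 0.0701) and Smad7 (-0.50, adjusted p = 0.0848) were not called. The receptor gene Acvrl1, named after its value was seen, was the remaining lower gene (-0.52, adjusted p = 0.0326 from limma). For tight junction partners of Cldn5, 3 of 7 tested genes were lower and 0 higher, among them Cldn15 (-0.83, adjusted p = 0.0302 from limma) and Jam2 (-0.43, adjusted p = 0.0286), opposite in direction to Cldn5.
Among genes for adhesion and clotting at the vessel wall, 2 of 7 were lower and 0 higher, with a median of 0.054. Estimates were above 0 for 4 and below 0 for 3. The lower genes included Thbd (-0.77, adjusted p = 0.0114 from limma), which encodes thrombomodulin. In the list of hypoxia and PGC-1 inputs to Vegfa, 5 of 15 tested genes were lower and 0 higher, among them Egln3 (-0.75, adjusted p = 0.00889 from limma), Ppargc1a (-0.69, adjusted p = 0.0156) and Esrra (-0.60, adjusted p = 0.0298), while Ppargc1b (0.34, adjusted p = 0.136) had an estimate above 0 and was not called. Of 10 tested angiogenesis inhibitors, 2 were lower, among them Serpinf1 (-0.31, adjusted p = 0.0208 from limma), and 1, the protease gene Adamts1 (0.52, adjusted p = 0.0205), was higher. Of the other VEGF ligands, receptors and co-receptors, 0 of 4 tested genes passed, and Flt4 (-0.35, adjusted p = 0.325 from limma) and Nrp2 (-0.25, adjusted p = 0.386) had estimates below 0.

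**Figure D4:**
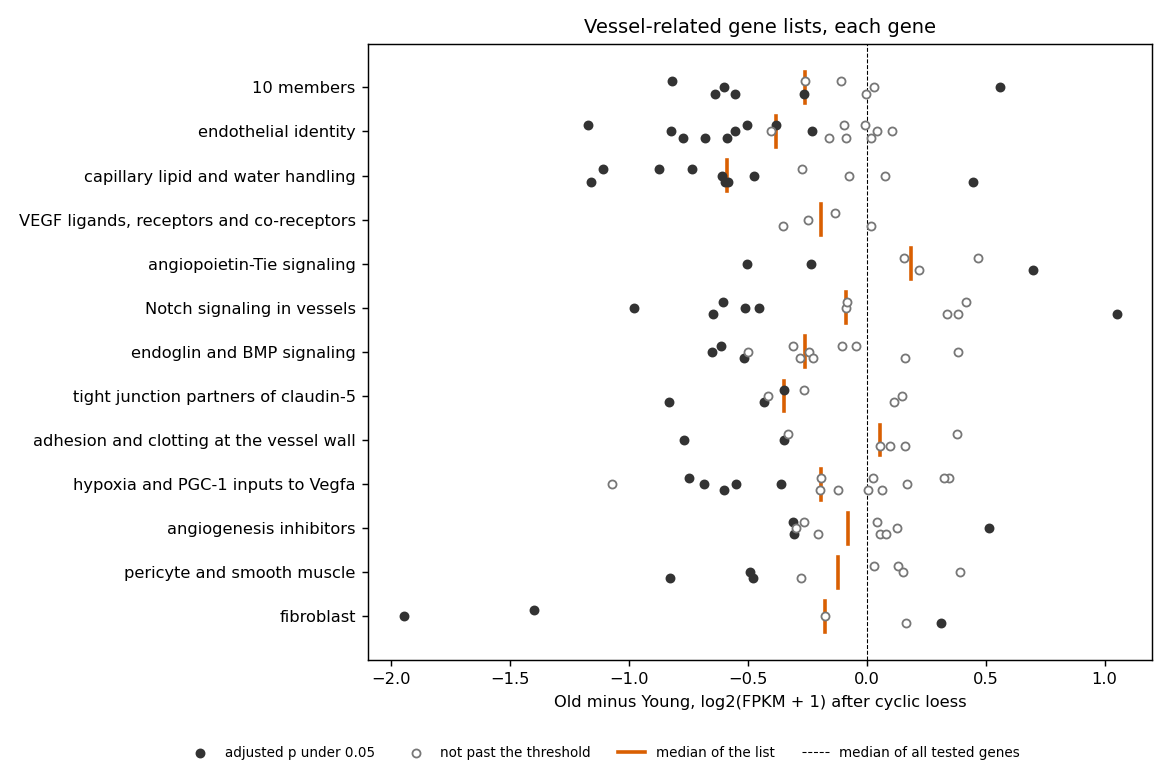
Old minus Young in log2(FPKM + 1) after cyclic loess for each tested gene of the 10 genes and of the vessel-related lists. The pericyte and smooth muscle list and the fibroblast list are drawn too, and the lists of the remaining other cells are not. Filled points passed an adjusted p under 0.05, open points did not, the orange line is the median of a list and the dashed line the median of all tested genes. The capillary list has a median of -0.59, and Cldn5, Angpt1 and Hes1 stand on the higher side.

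Markers of other cells also differed between the ages. Alpha globin (Hba-a1 and Hba-a2, 1 label), a red cell marker, had 607 and 277 FPKM in old muscles and 39.5 and 88.6 FPKM in young muscles. The 5 platelet and red cell labels with a value summed to 278 to 614 FPKM in old and 40.2 to 95.7 FPKM in young muscles. Nearly all of these sums came from alpha globin. Of the 2 labels of that list that were tested, 1 had an estimate above 0 and 1 below. The collagen genes Col1a1 (-1.95, adjusted p = 0.00528 from limma) and Col3a1 (-1.40, adjusted p = 0.00660) were lower, Pdgfra (0.16, adjusted p = 0.603) was not called, and Dcn, named after its value was seen, was higher (0.31, adjusted p = 0.0253). The 5 fibroblast genes summed to 83.4 to 162 FPKM in old and 106 to 209 FPKM in young muscles. Of 8 pericyte and smooth muscle genes, 3 were lower and 0 higher, and 4 estimates were above 0 and 4 below. The lower genes were Notch3 (-0.83, adjusted p = 0.0163 from limma), Acta2 (-0.49, adjusted p = 0.0100) and Pdgfrb (-0.48, adjusted p = 0.0383). Rgs5 (-0.28, adjusted p = 0.724 from limma) and Myh11 (0.13, adjusted p = 0.702) were not called. The list summed to 737 to 2645 FPKM in old and 667 to 2272 FPKM in young muscles, most of it from a label that joins Des with Speg. The 7 macrophage and leukocyte genes summed to 2.52 to 8.38 FPKM in old and 4.69 to 14.2 FPKM in young muscles, and 1 of 4 tested, Mrc1 (-0.94, adjusted p = 0.0392), was lower (limma). The 5 adipocyte genes summed to 4.86 to 134 FPKM in old and 2.54 to 156 FPKM in young muscles, most of the upper values from Cfd, which was listed at 119 and 0 FPKM in old muscles and 0 and 147 FPKM in young muscles. Adipoq was higher (0.80, adjusted p = 0.0473 from limma). The 3 lymphatic genes with a value summed to 1.09 to 3.69 FPKM in old and 1.84 to 5.12 FPKM in young muscles.
The muscle fiber list summed to 8573 to 46263 FPKM in old and 9563 to 48814 FPKM in young muscles, yet its markers Ckm and Myh4 were listed at 0 in all 4 samples, and Ttn was listed at 0 in both old samples. The slow-fiber gene Tnnt1, which is in no list, had 204 and 74.4 FPKM at 20 months and 3.56 and 6.67 FPKM at 3 months. The part of blood, of these other cells and of fiber type in the differences of the 10 genes was not tested.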

How the data were processed

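RNA from 4 TA muscle samples was compared by age, as the sample labels group them. The authors trimmed reads, took out PCR duplicates, aligned to mm10 with TopHat2 2.0.10 and RefSeq genes, and deposited one table of FPKM per sample from Cufflinks. The study names a stranded mRNA kit, the labels a TruSeq RNA kit without that word, and the strand setting of alignment and quantification is not given in the sources used here. The design text speaks of triplicates, and 2 samples per age were analysed here. Only part of the genome is covered: loci past chromosome 7 or the first of chromosome 8, in text order of the names, were not analysed here. FPKM of loci with the same symbol was summed. FPKM holds no counts, so depth and counting error are unknown.
log2(FPKM + 1) of genes at 1 FPKM or more in 2 or more samples was fitted with limma 3.58.1 in R 4.3.3 (eBayes with trend, two-sided, adjusted by Benjamini-Hochberg over all tested genes, threshold 0.05). Alternatives were cyclic loess, median scaling, quantile normalization, a pseudocount of 0.1, other filters, the highest locus per symbol, no trend, a replicate block and leaving out each sample. Crossed pairs, leaving out a sample with cyclic loess, and ratios within a sample were added after the values were seen. Fits were tried on simulated data with 200 changed genes, a single size of change and the same spread at every level. The spread in these data changes with level, so the simulation does not measure the error of the calls here. Same-numbered samples were checked as pairs, and their deviations from the mean of the age correlated at -0.885 over genes, so the numbers were not taken to mark a shared source.
The 10 genes and all lists were chosen with earlier results of these data known. Named list genes are those called as deposited and up to 3 higher and 3 lower with the largest differences under median scaling and no overlap between ages, plus first-listed markers of other cells. Others are said to be named after their values were seen, apart from Egfl7, Erg, Emcn and Icam2, which are endothelial markers. A list gene that the rule names is not reported here.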

Additional observations from a re-analysis of the deposited data

How the results depend on the processing

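The number of the 10 genes called was 0 as deposited and under a pseudocount of 0.1, no filter, at least 1 FPKM in all 4 samples, the highest locus per symbol, no trend, median scaling, quantile normalization and the replicate block with and without median scaling. It was 6 with cyclic loess, and the cause was not tested. Over all tested genes, 31 were called as deposited, 6 with at least 1 FPKM in all 4 samples, 225 with quantile normalization, 2530 with cyclic loess, 5 with the replicate block and 216 with the replicate block and median scaling. A crossed pairing of the samples as a block, chosen after seeing the values, called 6186 of all genes and 7 of the 10. Leaving out 1 sample called 0 to 6 of the 10 and, over all genes, 3 to 8 as deposited. With median scaling, all genes called without Old 1, Old 2, Young 1 and Young 2 in turn numbered 994, 122, 542 and 904, and Flt1 was called without Young 2. With cyclic loess they numbered 1217, 0, 112 and 2316, and 4, 0, 0 and 6 of the 10 were called. The fit that called 0 had 2540 genes at an unadjusted p under 0.05 (limma).
The log2 difference of Tek changed sign to 0.018 with median scaling, 0.018 with the replicate block and median scaling and 0.0074 with quantile normalization. With 1 sample left out and no scaling, the difference ranged from -0.73 to 0.16 for Pecam1, -0.40 to 0.45 for Kdr, -0.42 to 0.41 for Tek, -0.65 to 0.14 for Vwf and -0.66 to 0.41 for Vegfa, while Flt1 (-1.28 to -0.38), Tie1 (-1.05 to -0.17), Eng (-1.13 to -0.18), Vegfb (-1.05 to -0.11) and Cldn5 (0.00097 to 1.11) kept their sign. With median scaling, Tek was 0.13 without Old 1 and 0.14 without Young 1, Vegfa 0.038 without Young 1, and Kdr -0.11 without Old 2 and -0.10 without Young 2. With cyclic loess, Tek was 0.065 without Old 1 and 0.076 without Young 1, and Kdr -0.032 without Old 2 and -0.051 without Young 2. The depth is unknown, and what it limits was not assessed.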
